A study of Mus musculus with 13 samples.

Results

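The nuclear receptor superfamily is described here by 40 of its genes, taken as the rows of the count table that carry their symbols. All 40 were found among the 27111 features with a gene name, and 23 passed the count filter of the fit that tested 14421 genes. The samples were Sertoli cells, the somatic cells that nurse the germ cells in the seminiferous tubules, enriched by FACS from the testes of adult male wild type mice (Bl6 in the labels, C57Bl/6J in the study's methods). The sort took large diploid cells with a high MitoTracker signal, with no transgene or surface marker. In the MSUS group (separation of pups from the mother at unpredictable times, with unpredictable stress of the mother), pups were kept apart from the mother for 3 h a day from postnatal day 1 to 14, and the mother was exposed to a cold swim or to restraint. Control pups were not disturbed. There were 6 control and 7 MSUS samples, each from 5 ng of total RNA and each sequenced as its own library.

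Nuclear receptors are transcription factors that bind DNA through a pair of zinc fingers, and many are switched by a small lipophilic ligand such as a retinoid, a thyroid hormone, a steroid, a fatty acid or an oxysterol. Retinoid X receptors (RXRs) are the common partner with which the retinoic acid, thyroid hormone, vitamin D, fatty acid, oxysterol and bile acid receptors form dimers. Other members have no known ligand and act as constitutive activators, as repressors or, like the Nr4a genes, as immediate early genes. In the testis, retinoic acid signalling through Sertoli cells sets the timing of spermatogonial differentiation.

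Stretches upstream of RefSeq start sites (GRCm38.p6) were read for 7 receptors whose levels are described below, because they carry the letters of binding motifs or differ in CG content. All are given 5′ to 3′ on the strand of the gene, and stretches inside annotated exons were left out, except for the retinoic acid site. In the limma fit, Nr0b2 was the only tested receptor with an unadjusted p-value under 0.05. In its stretch (chr4:133553126-133553375, plus strand, directly upstream of the gene), capitals mark both matches of TCAAGG. This is the first part of the extended monomer site bound by receptors such as the estrogen-related receptors. Neither match goes on with the TCA that completes that site. In Rarb (chr14:16575506-16575535, minus strand, inside an annotated exon of the gene), capitals mark GTTCA, 6 bases of any kind and GTTCA again, the direct repeat known as the retinoic acid response element of this gene.
Nr0b2: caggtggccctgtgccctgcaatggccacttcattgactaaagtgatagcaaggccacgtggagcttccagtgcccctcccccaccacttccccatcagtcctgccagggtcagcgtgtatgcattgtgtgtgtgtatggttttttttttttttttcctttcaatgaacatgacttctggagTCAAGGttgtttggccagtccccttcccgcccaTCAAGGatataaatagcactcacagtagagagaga
Rarb: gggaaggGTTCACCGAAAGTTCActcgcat
In Nr4a1 (chr15:101266596-101266845, plus strand, in an intron of a longer transcript), Nr4a2 (chr2:57124004-57124253, minus strand) and Nr4a3 (chr4:48045055-48045152, plus strand), capitals mark TGACG or its reverse complement CGTCA, the core of the cAMP response element.
Nr4a1: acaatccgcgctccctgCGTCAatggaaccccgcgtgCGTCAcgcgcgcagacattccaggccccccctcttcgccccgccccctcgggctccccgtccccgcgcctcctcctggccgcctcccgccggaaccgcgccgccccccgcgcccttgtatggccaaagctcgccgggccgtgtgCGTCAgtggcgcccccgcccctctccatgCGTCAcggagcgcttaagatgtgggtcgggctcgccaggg
Nr4a2: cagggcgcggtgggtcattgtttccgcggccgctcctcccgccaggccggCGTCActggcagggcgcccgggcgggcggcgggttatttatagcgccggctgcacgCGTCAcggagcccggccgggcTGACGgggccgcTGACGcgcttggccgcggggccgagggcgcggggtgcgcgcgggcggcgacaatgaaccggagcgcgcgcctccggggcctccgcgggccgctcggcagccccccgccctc
Nr4a3: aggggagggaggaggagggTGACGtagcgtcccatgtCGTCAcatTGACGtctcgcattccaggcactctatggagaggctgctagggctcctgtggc
In Rxrb (chr17:34031683-34031811, plus strand) and Rxrg (chr1:167598112-167598361, plus strand), the highest and the lowest RXR gene in these cells, capitals mark CG dinucleotides.
Rxrb: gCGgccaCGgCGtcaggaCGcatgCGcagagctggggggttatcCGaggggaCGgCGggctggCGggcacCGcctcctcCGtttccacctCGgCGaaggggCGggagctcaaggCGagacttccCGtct
Rxrg: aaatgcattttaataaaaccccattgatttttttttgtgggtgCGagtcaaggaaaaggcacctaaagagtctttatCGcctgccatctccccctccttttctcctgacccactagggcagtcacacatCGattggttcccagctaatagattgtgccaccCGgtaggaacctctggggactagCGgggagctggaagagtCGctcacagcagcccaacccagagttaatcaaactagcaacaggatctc
The Rxrb stretch held 16 CG in 129 bases and the Rxrg stretch 6 in 250 bases.

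Counts are the estimated counts that the authors deposited per gene, rounded to whole numbers. Total counts ranged from 13087203 to 18649945 in control and from 12701776 to 15693938 in MSUS samples. CPM are counts of the named features scaled to a common library size after TMM normalization, in the usual CPM unit, and log2 CPM carries a prior count of 2. Levels of different genes are compared as CPM per kb of the longest transcript annotated in GENCODE vM21. All 10 Sertoli cell markers were detected, with summed levels of 13100 to 16200 CPM in control and 13300 to 15700 CPM in MSUS samples. Markers of elongated spermatids summed to 847 to 1380 CPM in control and 730 to 1780 CPM in MSUS samples, those of spermatocytes to 158 to 220 and 104 to 255 CPM, those of round spermatids to 68.8 to 95 and 66.3 to 137 CPM, and those of spermatogonia to 191 to 244 and 178 to 262 CPM. Nearly all of the spermatogonia sum came from Uchl1, with 1991 to 3002 counts in control samples. The markers Zbtb16, Kit, Sall4 and Stra8 had at most 25 counts in a control sample. Leydig cell markers summed to 30 to 66.9 and 40 to 83.2 CPM, endothelial markers to 53.4 to 68.9 and 52.5 to 74 CPM, and peritubular myoid markers to 8.04 to 62.9 and 11.5 to 92.8 CPM. Macrophage markers did not exceed 2 CPM in sum, and Lyz2 was at 0 in all controls. No tested marker of these lists had a p-value under 0.05 between the groups in the limma fit. The part of other cells in the receptor levels was not tested, and in such bulk samples fewer cells of a type and less RNA per cell cannot be told apart.

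The first question was which receptors the control Sertoli cells expressed. A receptor was called expressed with at least 1 CPM in every control sample, silent with at most 3 counts in every one, and low in between. Expressed receptors numbered 18 of 40, against 47.5% of all named features. Silent receptors numbered 3, against 26.9% of all named features, and the other 19 were low. Rara, the retinoic acid receptor alpha, and Nr1h2, the oxysterol receptor LXR beta, stood above all others per kb. They were followed by Rxrb, the vitamin D receptor Vdr, the thyroid hormone receptor Thra and Rora. Of the expressed receptors, 7 lay above 6.97 CPM per kb, the median of the 13352 tested genes with a known length.

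**Figure D1:**
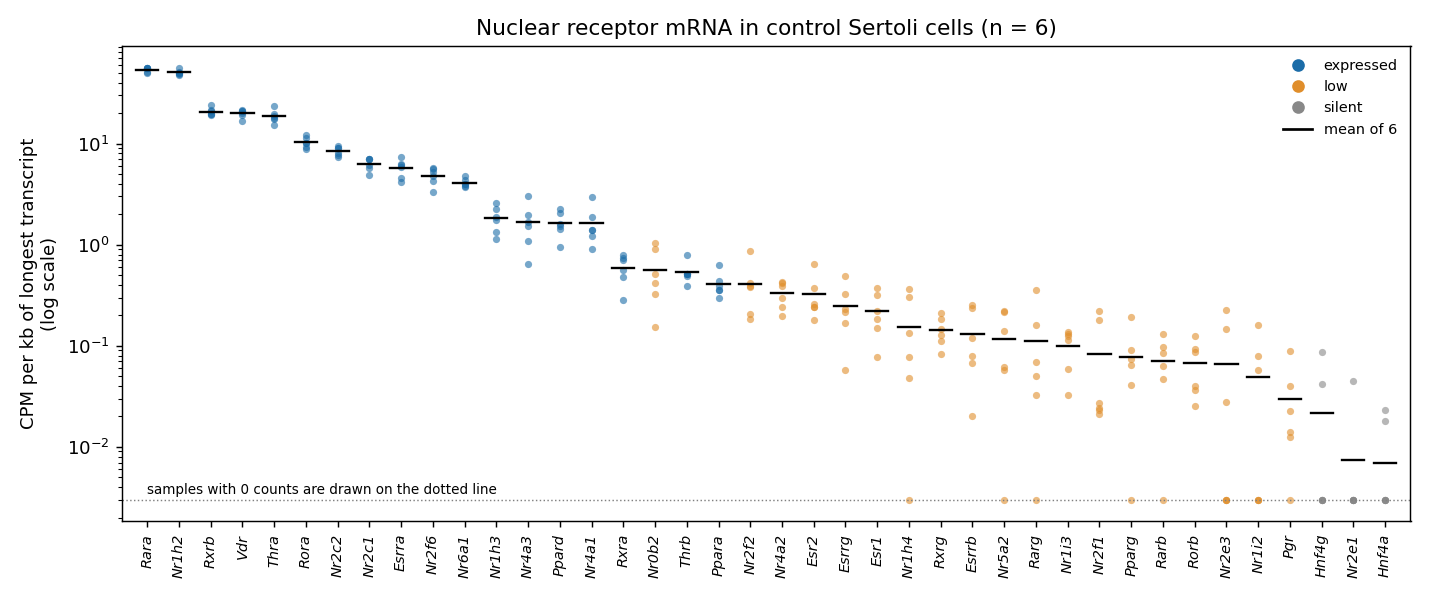
Levels of the 40 receptors in the 6 control samples, as CPM per kb of the longest transcript on a log axis, ordered by the mean. Points are samples, black bars are means, and colours give the class. Rara and Nr1h2 lie near 50.6 to 54 CPM per kb, and Hnf4g, Nr2e1 and Hnf4a at the right end have samples with 0 counts.

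Among the receptors that pair with RXR, Rara had 53.97 ± 3.00 CPM per kb in control samples (SD, n = 6), and Nr1h2 had 50.64 ± 3.08. Their ranges, 49.55 to 56.32 and 47.99 to 56.56, overlapped, so the order of these neighbours was within the spread between mice. Rxrb (20.75 ± 1.79), Vdr (19.9 ± 1.74) and Thra (18.8 ± 2.71) formed the next group, again with overlapping ranges. Rara lies on chromosome 11 (98927818 to 98974942, plus strand), Nr1h2 on chromosome 7 (44549616 to 44553951, minus strand), Rxrb on chromosome 17 (34031812 to 34038399, plus strand) and Vdr on chromosome 15 (97854425 to 97910630, minus strand). Thra (chromosome 11, 98740638 to 98769006, plus strand) shares 263 exonic bases, 5.7% of its own, with Nr1d1 on the opposite strand. The fatty acid receptor Ppard had 1.64 ± 0.46 CPM per kb, the oxysterol receptor Nr1h3 (LXR alpha) 1.82 ± 0.54, Rxra 0.593 ± 0.193, Thrb 0.534 ± 0.132 and Ppara 0.411 ± 0.115. Ppara was just inside the class, with a lowest control sample of 1.02 CPM, and Nr2f2, with 0.781 CPM in its lowest sample, was just outside.

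With each gene's length taken as the mean over its annotated transcripts, the upper end changed order but not its makeup. Nr1h2 then led with 92.0 ± 5.59 CPM per kb, ahead of Rara with 83.8 ± 4.65, Vdr with 74.0 ± 6.47, Thra with 43.1 ± 6.21, Rora with 40.3 ± 4.70 and Rxrb with 38.0 ± 3.27 (SD, n = 6).

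Of the receptors not activated by a classical hormone, 6 were expressed at intermediate levels. Rora, which binds the same elements as the clock repressors, had 10.32 ± 1.20 CPM per kb (SD, n = 6). The testicular receptors Nr2c2 and Nr2c1, so named because they were cloned from testis, had 8.45 ± 0.79 and 6.32 ± 0.87. Esrra, which drives genes of oxidative metabolism together with PGC-1 coactivators, had 5.77 ± 1.20, the COUP-TF relative Nr2f6 had 4.82 ± 0.91, and the germ cell nuclear factor Nr6a1 had 4.09 ± 0.39. The counting of 2 of these is uncertain where strand was not used, since Nr2c2 shares 30.73% of its exonic bases with Mrps25 and Nr2f6 54.37% with Ocel1, both on the opposite strand. The immediate early receptors Nr4a3 and Nr4a1 were nearly level at 1.66 ± 0.82 and 1.63 ± 0.72, and Nr4a2 was low at 0.329 ± 0.099.

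The silent receptors were Hnf4a and Hnf4g, which maintain liver, kidney and gut epithelia, and Nr2e1, a receptor of neural stem cells. Hnf4a had 0 to 1 count per control sample, and Hnf4g and Nr2e1 had 0 to 2. A count of 0 allows a true count of up to 3, and a count of 1 or 2 allows more. These values thus set a limit at this depth and do not show absence. Of the low receptors, Nr0b2 had the highest mean level with 0.558 ± 0.341 CPM per kb (SD, n = 6). The COUP transcription factor Nr2f2 followed with 0.410 ± 0.248, and after Nr4a2 came the estrogen receptors Esr2 with 0.324 ± 0.170 and Esr1 with 0.221 ± 0.109 on either side of Esrrg with 0.248 ± 0.146. The other 13 low receptors besides Nr4a2 had means from 0.030 to 0.155 CPM per kb, and none of them had more than 14 counts in a control sample. In falling order they were the bile acid receptor Nr1h4 (FXR), Rxrg, Esrrb, Nr5a2, the retinoic acid receptor Rarg, the xenobiotic receptor Nr1i3 (CAR), the COUP transcription factor Nr2f1, the fat cell receptor Pparg, Rarb, Rorb, the photoreceptor gene Nr2e3, the xenobiotic receptor Nr1i2 (PXR) and the progesterone receptor Pgr. In MSUS samples 39 of the 40 receptors kept their class, and Hnf4g moved from silent to low through a single sample, with 5 counts.

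Within subfamilies, 1 gene usually carried most of the RNA. Rara had 99.67 ± 0.28% of the CPM per kb of the retinoic acid receptors in control samples (SD, n = 6), Rora 99.34 ± 0.37% of its pair, Vdr 99.24 ± 0.49% of its group with Nr1i2 and Nr1i3, Thra 97.18 ± 0.83%, Rxrb 96.51 ± 1.20% and Nr1h2 96.21 ± 1.32%. Esrra held 93.68 ± 1.59% of the estrogen-related receptors and Nr2f6 90.41 ± 5.09% of its group. Other subfamilies were shared. Ppard held 76.58 ± 4.14% beside Ppara, Nr2c2 57.27 ± 4.86% beside Nr2c1, and Nr4a3 44.8 ± 9.02% beside Nr4a1 and Nr4a2. Each of the 8 leaders from Rara to Nr2f6 ranked first of its subfamily in 6 of 6 control and 7 of 7 MSUS samples.

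**Figure D2:**
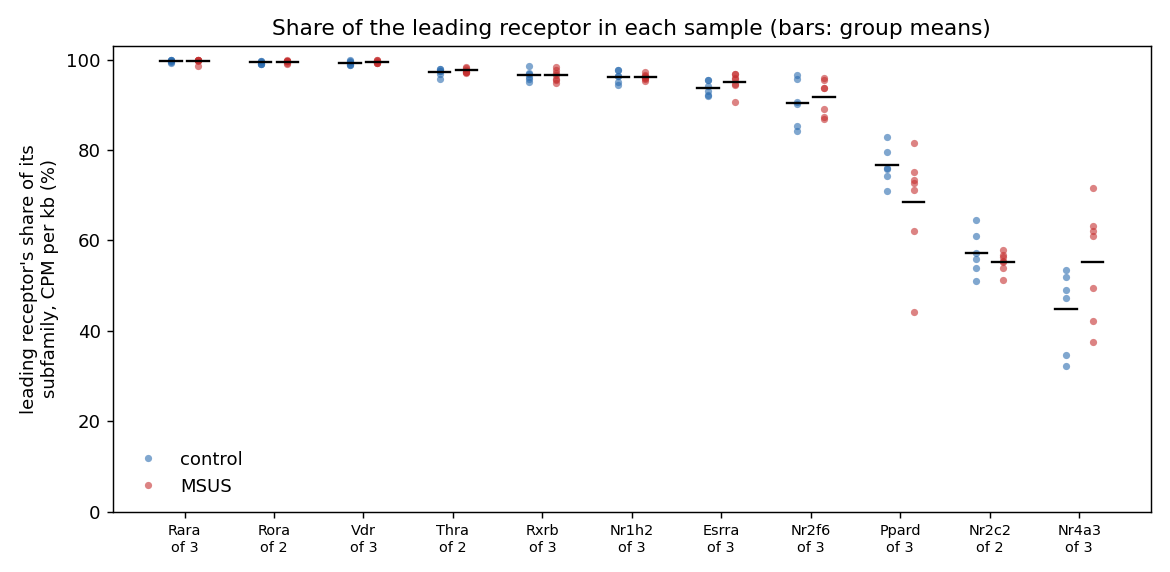
Share of the leading receptor in the CPM per kb of its subfamily, in percent, for the 11 subfamilies led by an expressed receptor. Points are samples, blue for control (n = 6) and red for MSUS (n = 7), bars are means, and the number of genes in the subfamily stands below the name. Rara, Rora and Vdr lie at 99.24% to 99.67% in control, while Nr2c2 and Nr4a3 lie lower and more widely spread.

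To ask which receptors of a subfamily differed, 29 of the 30 possible pairs were compared in the 6 control samples by an exact sign-flip permutation test (two-sided) of log2(CPM per kb + 0.1). The pair of Hnf4a and Hnf4g was left out because both were silent. In 23 pairs 1 gene was higher in all 6 samples, which gives p = 0.03125, the smallest that 6 samples allow, and p = 0.0394 after Benjamini-Hochberg adjustment over the 29 exact tests. The differences in log2 units were 8.35 ± 0.35 for Rara over Rarb, 6.44 ± 0.36 for Rxrb over Rxrg, 4.96 ± 0.57 for Rxrb over Rxra and 0.42 ± 0.29 for Nr2c2 over Nr2c1 (SD, n = 6). The lower gene is near 0 in several pairs, and the added 0.1 then limits the difference. The remaining 6 pairs did not pass. In 5 of them both genes were low or silent. Their 95% intervals of the log2 difference, besides that of Esr1 and Esr2 given next, were −0.78 to 0.45 for Rarb minus Rarg, −0.99 to 0.02 for Nr1i2 minus Nr1i3, −1.32 to 0.38 for Nr2e1 minus Nr2e3 and −1.87 to 0.68 for Esrrb minus Esrrg.

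Esr1 and Esr2, the estrogen receptors, could not be ordered. The log2 difference of Esr1 minus Esr2 was −0.40 ± 0.67 (SD, n = 6, 95% interval −1.10 to 0.30, exact permutation p = 0.2188, adjusted p = 0.254). With the mean transcript length its direction turned, at 0.47, and without a length correction it was 0.30. In control samples Esr1 had 0.486, 1.28 and 2.34 CPM and Esr2 0.611, 0.847 and 2.17 CPM as lowest, median and highest values. In MSUS samples Esr1 had 0.589, 1.29 and 1.81 CPM, and Esr2 had 0.173, 0.646 and 1.27 CPM. The groups overlapped for both genes.

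Nr4a1 and Nr4a3 were also level per kb, with a log2 difference of 0.02 ± 0.48 (SD, n = 6, 95% interval −0.48 to 0.53, exact permutation p = 0.9688, adjusted p = 0.969). In plain CPM, without regard to the longer Nr4a3 transcript, Nr4a3 was higher by 1.11 log2 units and that difference passed the exact test.

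The 3 RXR genes together had 21.5 ± 1.6 CPM per kb in control samples (SD, n = 6), nearly all from Rxrb. The 14 receptors of the partner subfamilies of retinoic acid, thyroid hormone, fatty acid, oxysterol and bile acid, vitamin D and xenobiotic receptors had 148 ± 5.19 CPM per kb. Partner RNA thus exceeded RXR RNA by a factor of 6.92 ± 0.47 in control (range 6.07 to 7.43) and of 7.72 ± 0.70 in MSUS samples (SD, n = 7, range 6.9 to 8.7). The ranges of the groups overlapped, and the ratio was not tested between them.

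The second question was whether receptor levels in adult Sertoli cells differed after MSUS. No receptor differed after adjustment over all genes tested. The limma fit gave 1 of 23 tested receptors with an unadjusted p-value under 0.05, Nr0b2, which was higher in MSUS. The background share was 5.42% of all 14421 genes (435 higher, 3.02%, and 346 lower, 2.4%), so 1 of 23 is near it. With library sizes alone in place of TMM the split of all genes was 325 higher and 469 lower, and with the elongated spermatid markers as a covariate it was 782 and 422. Adjusted p-values of the receptors lay between 0.878 and 0.999. No gene of the whole table had an adjusted p-value under 0.05 in limma, with 781 at an unadjusted p under 0.05, in edgeR's quasi-likelihood test, with 793 (5.5%), or in DESeq2, with 835 (5.79%).

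Of the 23, 13 had a positive and 10 a negative log2 fold change. The median was 0.02, against 0.00 for all genes tested, and the median size was 0.07, against 0.10. For 11 receptors the 95% interval lay within 0.5 log2 units of 0, and for the other 12 it reached further, so a change of that size could not be resolved for them. The groups overlapped in all 23, while they did not overlap in 0.132% of all genes tested.

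**Figure D3:**
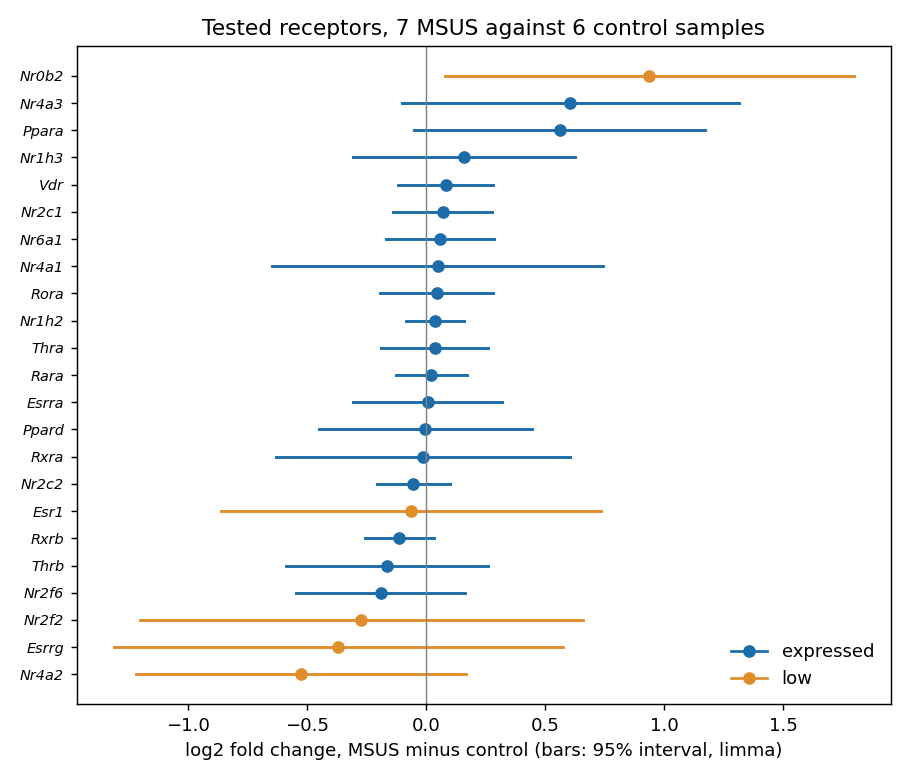
Log2 fold change of MSUS over control for the 23 tested receptors from the limma fit, with 95% intervals. Colours give the class in control, and the line marks 0. The interval of Nr0b2, 0.08 to 1.80, is the only one that does not cross 0.

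Nr0b2 (SHP, chromosome 4, 133553376 to 133556536, plus strand) is an atypical receptor without a DNA-binding domain that represses other nuclear receptors. Its levels in control samples were 0.174, 0.53 and 1.17 CPM as lowest, median and highest, from 2 to 15 counts, and in MSUS samples 0.634, 1.13 and 1.81 CPM, from 7 to 20 counts. All 7 MSUS samples lay above the control mean and 2 lay above every control, so the groups overlapped. Nr0b2 passed the count filter mostly through MSUS samples, where its median was 11 counts, against 6.5 in control samples. Its place among the tested receptors was thus not independent of its difference between the groups. The log2 fold change was 0.94 ± 0.41 (SE; 95% interval 0.08 to 1.80, limma p = 0.0339, adjusted p = 0.878), and an exact permutation test of log2 CPM gave an unadjusted p = 0.0396, two-sided. The p-value was 0.05 or more in 7 of 22 alternative fits: 0.0617 in edgeR's quasi-likelihood test, 0.0715 in DESeq2, 0.0564 with elongated spermatid markers as a covariate, 0.101 without control 9 (log2 fold change 0.67), 0.0633 without control 10, 0.0776 without control 22 and 0.0692 without MSUS 5.

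Ppara, the receptor of fatty acids that raises their oxidation, had the next smallest p-value. It had 1.02, 1.28 and 2.14 CPM in control and 1.34, 1.99 and 3.90 CPM in MSUS samples as lowest, median and highest values. In MSUS 6 of 7 samples were above the control mean and 2 above every control. Its log2 fold change was 0.56 ± 0.29 (SE, limma p = 0.0699, adjusted p = 0.878), and the exact permutation test gave an unadjusted p = 0.042. The limma p-value was under 0.05 in 3 of 22 alternatives, at 0.0272 with elongated spermatid markers as a covariate, 0.0452 without control 24 and 0.0377 without MSUS 6, and rose to 0.159 without MSUS 5. Ppard, by contrast, had 3.54, 5.88 and 8.37 CPM in control and 3.99, 5.89 and 7.86 CPM in MSUS samples, with a log2 fold change of 0.00 ± 0.21 (SE, adjusted p = 0.999).

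The Nr4a receptors are induced within a short time of stimulation in many cells. Nr4a3 had 3.70, 9.19 and 17.4 CPM in control and 7.21, 11.1 and 28.0 CPM in MSUS samples as lowest, median and highest values. The highest were MSUS 5 with 309 counts and MSUS 6 with 272, and the highest control was control 14 with 171. The log2 fold change was 0.61 ± 0.34 (SE, limma p = 0.0894, adjusted p = 0.878), and the exact permutation test gave p = 0.172. The unadjusted limma p-value was under 0.05 with sample quality weights (log2 fold change 0.79), without control 14 (0.77) and without MSUS 23 (0.72), and not in the other 19 alternatives. The residual SD of the limma fit, in which voom weights each value by its precision, ranked Nr4a3 above 98.3% of all genes tested. Nr4a1 ranked above 89.6% and Nr4a2 above 7.16%. This rank is not one of plain spread between mice. The SDs of log2 CPM were 0.75 in control and 0.73 in MSUS samples for Nr4a3, 0.55 and 0.75 for Nr4a1, and 0.40 and 0.45 for Nr4a2.

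Nr4a1 had 2.33, 3.59 and 7.53 CPM in control and 1.47, 3.88 and 7.08 CPM in MSUS samples, with a log2 fold change of 0.05 ± 0.33 (SE, adjusted p = 0.984). Nr4a2 had 0.696, 1.23 and 1.53 CPM in control and 0.543, 0.716 and 1.66 CPM in MSUS samples, with a log2 fold change of −0.53 ± 0.33 (SE, adjusted p = 0.878). Only MSUS 11 was above the control mean of Nr4a2. The estimates of Nr4a2 and Nr4a3 thus had opposite signs, and neither passed the test. Across the 13 samples log2 CPM of Nr4a1 and Nr4a3 had r = 0.551 (permutation p = 0.0485) and rho = 0.385 (permutation p = 0.194), with adjusted permutation p-values of 0.146 and 0.291 over the 3 pairs. For Nr4a1 and Nr4a2 r was 0.384 (adjusted permutation p = 0.288), 0.171 without the farthest samples, and for Nr4a2 and Nr4a3 it was −0.157 (adjusted permutation p = 0.609). For Nr4a1 and Nr4a3, r within groups was 0.736 in control and 0.5 in MSUS samples, and without MSUS 1 and control 14, the samples farthest out in Nr4a1, it was 0.698.

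**Figure D4:**
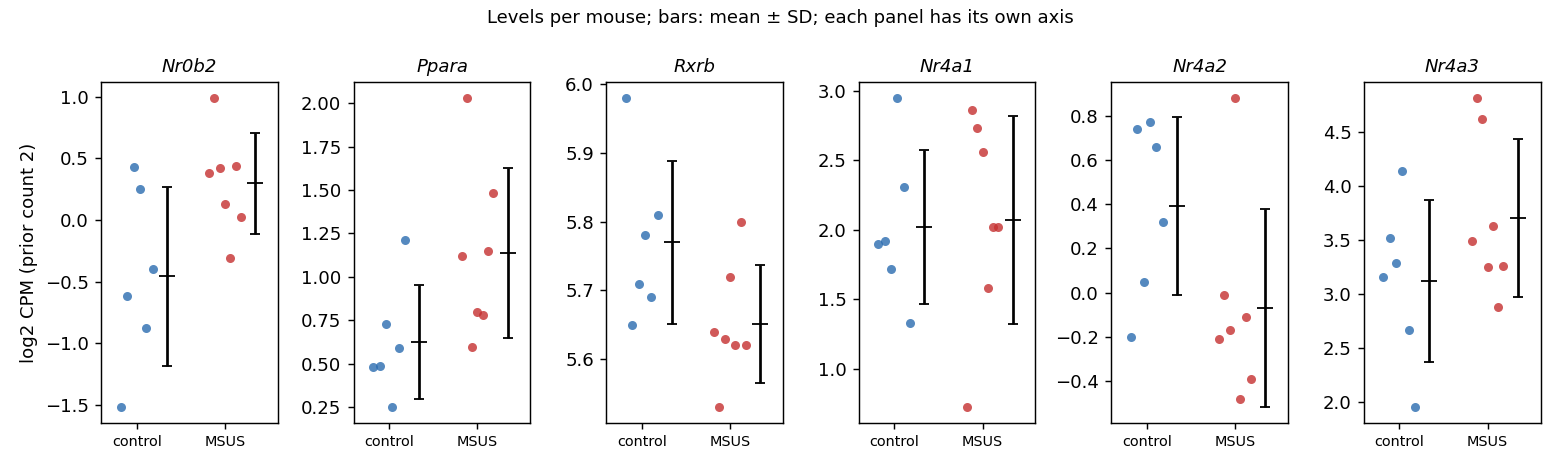
Log2 CPM of Nr0b2, Ppara, Rxrb, Nr4a1, Nr4a2 and Nr4a3 in each control (blue, n = 6) and MSUS sample (red, n = 7), with mean ± SD beside the points and a separate axis in each panel. The groups overlap in all 6 panels, and MSUS 5 and MSUS 6 are the highest samples of Nr4a3 at 4.82 and 4.62.

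Rxrb had 50.0, 53.4 and 63.0 CPM in control and 46.1, 49.4 and 55.5 CPM in MSUS samples, and 5 of 7 MSUS samples lay below every control. The difference was small, with a log2 fold change of −0.11 ± 0.07 (SE, 95% interval −0.26 to 0.03, limma p = 0.118, adjusted p = 0.878), and the exact permutation test gave p = 0.0676. No alternative brought the limma p-value under 0.05. Rxra, with 1.39, 3.09 and 3.91 CPM in control and 1.45, 2.77 and 4.97 CPM in MSUS samples, had a log2 fold change of −0.01 ± 0.29 (SE).

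The leading receptors of the other subfamilies differed little between the groups. Rara had 168, 188 and 191 CPM in control and 170, 177 and 235 CPM in MSUS samples, with a log2 fold change of 0.02 ± 0.07 (SE, 95% interval −0.13 to 0.17). Nr1h2 had 95.9, 99.8 and 113 CPM in control and 93.1, 105 and 111 CPM in MSUS samples, with 0.04 ± 0.06 (95% interval −0.09 to 0.16). Both intervals lie well within 0.5 log2 units of 0.

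Vdr had 73.4, 89.7 and 94.3 CPM in control and 73.0, 93.8 and 118 CPM in MSUS samples, with a log2 fold change of 0.08 ± 0.10 (SE). Thra had 37.7, 44.8 and 57.6 CPM in control and 40.3, 46.3 and 63.2 CPM in MSUS samples, with 0.04 ± 0.11. In both receptors the MSUS range reached above the control range through a few samples, 2 for Vdr and 1 for Thra.

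Rora had 97.2, 110 and 131 CPM in control and 95.9, 111 and 175 CPM in MSUS samples, with a log2 fold change of 0.04 ± 0.11 (SE). Esrra had 10.4, 15.1 and 18.5 CPM in control and 12.2, 13.9 and 19.4 CPM in MSUS samples, with 0.01 ± 0.15. These signs turned with single samples. Rara and Rora had negative estimates without MSUS 26 (−0.03 and −0.05), and Rara also without control 12 (−0.0037). Thra was negative without MSUS 1 (−0.04) or control 10 (−0.03). Esrra was negative without control 12 (−0.09), control 14 (−0.0427), MSUS 6 (−0.0386) or MSUS 23 (−0.0555).

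Nr2c2 had 56.9, 65.5 and 71.7 CPM in control and 55.4, 64.1 and 67.5 CPM in MSUS samples, with a log2 fold change of −0.05 ± 0.07 (SE). Nr2f6 had 7.39, 11.1 and 12.8 CPM in control and 5.82, 9.85 and 12.2 CPM in MSUS samples, with −0.19 ± 0.17. The other tested receptors, Thrb, Nr1h3, Nr2c1, Nr2f2, Esr1, Esrrg and Nr6a1, had log2 fold changes from −0.37 to 0.16 and limma p-values from 0.42 to 0.867.

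The 17 receptors that did not pass the count filter had at most 25 counts in any control sample, that of Esr2. Nr2e3 had the higher mean of its pair but was the higher gene in only 2 of 6 control samples. It had 0, 0.0369 and 0.611 CPM in control and 0, 0.168 and 0.724 CPM in MSUS samples, and Hnf4g had 0, 0 and 0.204 CPM and 0, 0 and 0.433 CPM. Without a count filter, Nr1i3 had a log2 fold change of −1.55 ± 0.58 and Rxrg of −1.33 ± 0.63 (SE), both with an unadjusted limma p-value under 0.05. These values rest on 1 to 5 against 0 to 4 counts for Nr1i3 and on 2 to 6 against 0 to 8 for Rxrg. In that fit 3 of 40 receptors, with Nr0b2, and 4.99% of all 23680 genes had such a p-value. No gene passed adjustment there. Nr1i3 shares 74.85% of its exonic bases with Tomm40l on the opposite strand.

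Coregulators carry the output of the receptors, coactivators by opening chromatin and corepressors by closing it. Of 32 such genes, 31 were expressed in control samples, against 47.5% of all named features, and these 31 were tested. The p-value was under 0.05 for 2 of them, 6.45%, which is near the background of 5.42%, and no gene passed adjustment. With elongated spermatid markers as a covariate the count was 7 of 31, 22.6%, against 8.35% of all genes in that fit. The median log2 fold change of the 31 was 0.06. Pprc1, a coactivator related to PGC-1, was higher in all 7 MSUS samples than the control mean (log2 fold change 0.29 ± 0.09, SE, adjusted p = 0.878), and its unadjusted p-value stayed under 0.05 in all 22 alternatives. Hdac3, a histone deacetylase of corepressor complexes, was lower, with −0.15 ± 0.07 (SE, adjusted p = 0.878), and its unadjusted p-value was 0.05 or more in 7 of 22 alternatives. The highest coregulator per kb was Ncoa2, the coactivator SRC-2, with 125 ± 10.8 CPM per kb in control samples (SD, n = 6), above every receptor. The corepressor Ncor1 had 19.5 ± 1.85. The 1 coregulator that was not expressed was Ppargc1a (PGC-1 alpha), which had 6 to 22 counts in control and 1 to 7 counts in MSUS samples. All 7 MSUS samples lay below the control mean of log2 CPM, and without a count filter the log2 fold change was −1.58 ± 0.50 (SE, adjusted p = 0.929), with an unadjusted limma p-value under 0.05.

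Textbook target genes of 9 receptor groups were read in the same fit. Of 64 genes 35 were expressed, against 47.5% of all named features. Of the 41 tested, 1, Nr0b2 itself as an FXR target, had a p-value under 0.05, 2.44% against the background of 5.42%. Of the targets of retinoic acid receptors 6 of 11 were expressed, the highest being the retinol transporter Stra6 with 10.7 ± 1.93 CPM per kb (SD, n = 6), and the retinoic acid hydroxylase Cyp26b1 had 9.66 ± 1.38. Rarb, itself a textbook target and the gene with the response element printed above, had at most 6 counts in a control sample, and it shares 34.06% of its exonic bases with Top2b on the opposite strand. For PPARs 11 of 15 targets were expressed, led by Ucp2 with 61.0 ± 2.32, and for LXRs 6 of 10, led by the cholesterol exporter Abca1 with 18.1 ± 2.10.

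For thyroid hormone receptors 3 of 6 targets were expressed, with malic enzyme Me1 at 106 ± 5.33 CPM per kb and Klf9 at 24.3 ± 2.37 (SD, n = 6). For estrogen-related receptors 6 of 8 were expressed, with the ATP synthase gene Atp5b highest at 211 ± 17.4, and all 3 ROR targets were expressed, with Nfil3 highest at 16.4 ± 5.14. Of the 4 targets of Vdr, the fourth receptor per kb, only Spp1 was expressed, with 1.76 ± 0.68 CPM per kb. The vitamin D hydroxylase Cyp24a1 had at most 6 counts in a control sample.

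FXR, PXR and CAR, which were low, had no expressed target among 5 and 4 genes, and the highest were Nr0b2 and Cyp2b10 with 0.580 ± 0.157. These targets are also set by other factors, and their levels were not used to infer receptor activity.

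Promoters were compared as the 250 bases before each RefSeq start site, for the 38 members with an entry. Counting the window with the most CG for each member, the 17 expressed receptors had a median of 22 CG (range 7 to 42), the 19 low receptors of 7 (range 1 to 44), and the 2 silent receptors 4 and 15. At least 10 CG were found in 15 of 17 expressed and 8 of 19 low receptors. Over all windows, some members having several, the medians were 18 and 6, and the median of all 32851 promoters of this length was 6. This is a description across genes, which are not replicates, and exceptions went both ways: Pparg and Nr4a2 were low with 38 and 44 CG, and Nr6a1 and Nr1h3 were expressed with 7 and 8.

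**Figure D5:**
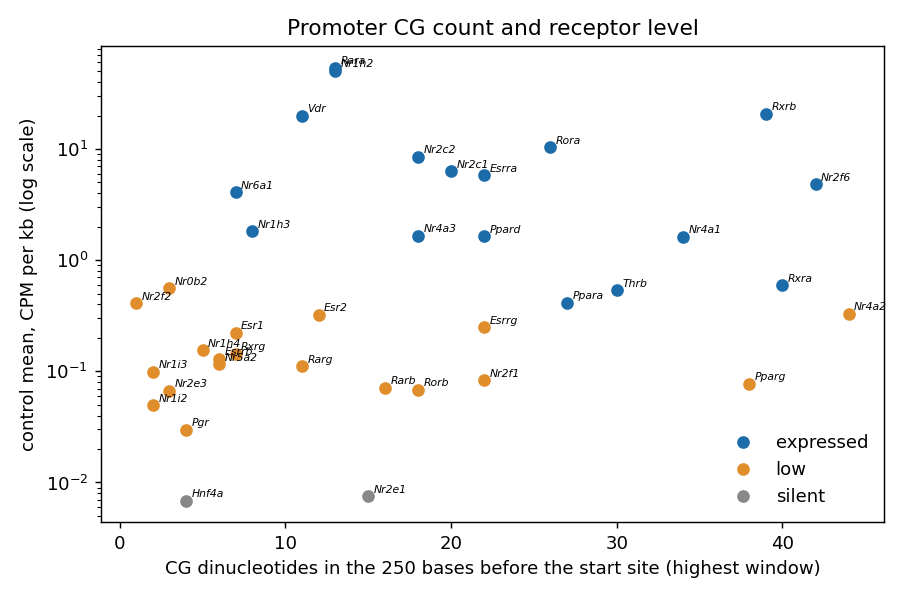
Number of CG dinucleotides in the 250 bases before the start site, for the window with the most, against the mean level in control samples as CPM per kb on a log axis. Each point is 1 of 38 receptors, coloured by class. Expressed receptors have a median of 22 CG and low ones of 7, with Pparg and Nr4a2 among the low receptors far to the right.

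Of the motifs marked in the stretches above, TGACG on either strand was found 4 times in each of the 250 base windows of Nr4a1, Nr4a2 and Nr4a3, while at least 4 matches occurred in 0.137% of all promoters and at least 1 in 17.8%. In Nr4a3 3 of the 4 matches lie in the printed part. TGACG itself holds a CG, and the windows of Nr4a1, Nr4a2 and Nr4a3 had 34, 44 and 18 CG, against the median of 6. The shares over all promoters were not matched for CG content. The full site TGACGTCA was in none of these windows, and it occurred in 1.55% of all promoters. The direct repeat of Rarb, GTTCA repeated with 6 bases between, on either strand, occurred in 22 promoters, 0.067% of all. TCAAGG, found 2 times in Nr0b2, occurred on either strand in 12.5% of promoters, and AGGTCA in 14%. Such matches say that the letters are present and nothing about binding in these cells.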

How the data were processed

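RNA of sorted Sertoli cells was sequenced from 6 control and 7 MSUS mice. Per the labels, reads were trimmed with Trim Galore 0.6.5 and assigned with Salmon 1.1.0, to GENCODE vM23 transcripts by the study's methods, and the authors deposited estimated counts per gene without normalization. How transcripts were summed to genes and whether strand was used are not given in the sources used here. Estimated counts were rounded, and the 27170 of 54281 features with no gene name (20.66% to 26.71% of counts) were left out. Genes that passed filterByExpr were scaled by TMM in edgeR 4.0.16 and fitted by voom and limma 3.58.1 under R 4.3.3, two-sided, with Benjamini-Hochberg adjustment over all genes tested. Alternatives were edgeR's quasi-likelihood test, DESeq2 1.42.0, sample quality weights, other normalizations and filters, the unnamed features kept, elongated spermatid markers as a covariate, and leaving out each sample. Exact permutation tests used SciPy 1.17.1.

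Lengths, positions and exon overlaps were read from GENCODE vM21 (GRCm38, the build of vM23), and promoters from RefSeq. The members and lists were chosen with earlier results of these data known. Per-sample ranges are given for receptors with p under 0.05, the highest of each subfamily and those with a sample far from the others, and Ppara, Nr4a1, Rxra and Esr1 were added after their values were seen. Mice are the replicates. By the study's methods, breeding pairs were assigned to the groups, so the exposure was given by litter. Litter, cage and protein sequences were not analysed here. The p-values and intervals treat all mice as independent and take no account of shared litters or cages. Values of 1 coregulator are not reported here. Depth was at least 9776853 named counts per sample. How far counting noise and spread between mice each limit the precision was not tested.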

Additional observations from a re-analysis of the deposited data

Results flagged for a closer look

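The values of the 23 tested receptors were searched for a sample far from the others of its group, by Dixon's test at the 95% level. Of 46 groups of values 5 were past the critical value, where chance gives about 1 in 20 groups, or 2.3. Thra had 5.99 log2 CPM in MSUS 1, against 5.34 to 5.58 in the other MSUS samples. MSUS 26 was high in both Rara, with 7.88 log2 CPM against 7.41 to 7.56, and Rora, with 7.45 against 6.59 to 6.85. Nr1h2 had 6.82 log2 CPM in control 14, against 6.59 to 6.67 in the other controls. Nr4a2 had 0.88 log2 CPM in MSUS 11, from 18 counts, against −0.48 to −0.01 from 6 to 9 counts. All 5 values were at the high end of their group, those of Rara and Rora in the same sample, and why was not tested.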

How the results depend on the processing

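No receptor had an adjusted p-value under 0.05 in any of the 22 alternatives. The count of receptors with an unadjusted p under 0.05, 1 of 23 in limma, was 0 in edgeR and DESeq2, against 5.5% and 5.79% of all genes. It was 2 with sample quality weights (Nr4a3 joined Nr0b2), against 7.25% of all genes in that fit. Without a count filter it was 3 of the 40 receptors then tested, against 4.99% of all genes. When each sample was left out it was 0 to 2, against 3.74% to 7.7% of all genes. That of coregulators, 2 in limma, was 7 with the elongated spermatid covariate (22.6%, against 8.35% of all genes in that fit). With each sample left out it was 1 to 5, against 3.74% to 7.7% of all genes. The count of 5, 16.1% of coregulators, came without control 10 (7.7% of all genes) or MSUS 13 (7.15%). That of targets, 1 in limma, was 0 in edgeR, DESeq2 and with the spermatid covariate, against 5.5%, 5.79% and 8.35% of all genes. With each sample left out the count of targets was 0 to 3, against 3.74% to 7.7% of all genes. With unnamed features kept it was 2, with weights 3 and with library sizes alone 4. The shares of all genes in those fits were 5.55%, 7.25% and 5.51%. Estimates near 0 changed sign: Ppard was 0.0017 with RLE size factors and Esrra −0.0079 with library sizes alone. When each sample was left out, Thra ranged from −0.0412 to 0.0943, Rara from −0.0322 to 0.0417, Ppard from −0.1657 to 0.0903, Rora from −0.0548 to 0.0938 and Esrra from −0.0885 to 0.0921. Silent receptors numbered 0 when 0 counts were required, 12 when up to 10 were allowed, and 3 to 5 when each control was left out (5 without control 10). Expressed receptors numbered 15 to 21, and the 23 pairs that differed were all called in each of the 5 alternatives. The median fold change stayed between 0.005 and 0.0473. The causes were not tested. No paired analysis was possible because the groups share no replicate number. Low counts limit the 19 low receptors.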
